A study of Zea mays with 18 samples.

Results

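The gene models described here are those whose transcript level was lower in the 1st leaf of maize seedlings given epibrassinolide (EBL), a brassinosteroid, than in the 1st leaf of control seedlings. They are the Zm00001d gene models with at least 5 RPKM in control leaves, a value above 0 in EBL leaves, and a log2((EBL + 1)/(control + 1)) in leaves of at most -1, a fall of at least 2-fold on that scale. RPKM is a read number divided by feature length and by library size. The rule found 186 of 43484 gene models, in a table of 45260 features, and 14612 gene models met its minimum in control leaves with a value above 0 in EBL leaves. The leaf values chose these 186 gene models, so their leaf values are a description, while the root and shoot columns were not used to choose them. A further 42 gene models reached 5 RPKM in control leaves and were listed at 0 in EBL leaves; such a 0 can be a failed estimate, and the rule leaves them out.

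Brassinosteroids are plant steroid hormones that are sensed by receptor kinases at the cell surface. The signal reaches transcription factors of the BZR family, which raise some genes and repress others, among them genes of hormone synthesis in a feedback loop. In maize, seedlings that cannot make brassinosteroids stay dwarf and have misshapen leaves. Neither the table nor the RefSeq gene list used for names pairs a Zm00001d identifier with a gene name, and 0 of the 43484 gene models were matched, so the members are given by identifier and no function is stated for them.

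All samples were seedlings of the inbred line B73, germinated in the dark for 3 days and then moved to tanks of nutrient medium. The 6 groups were 1st leaves, primary roots and shoots (coleoptile, apex and stem), each from controls and from seedlings grown for 48 h with 1 nM EBL, with 3 biological replicates per group and 18 samples in all. The labels do not say what the controls received in place of EBL, nor how many seedlings made up a replicate. The study asked how added brassinosteroid alters seedling growth, gravitropism and transcript levels.

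The table gives 1 RPKM value per group, so no replicate error, test or interval can be attached to any value below, and the depth of the libraries is unknown. A lower value can stand for fewer cells of a type or for less RNA per cell, which cannot be told apart. The columns summed to 1284512 RPKM for control leaves, 1599725 RPKM for EBL leaves, and to between 934116 and 1026860 in the 4 others. The organ labels could not be checked by named markers.

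In leaves the 186 gene models ran from 5.005 to 797 RPKM in controls (median 17.9 RPKM) and from 0.109 to 198 RPKM with EBL (median 6.95 RPKM). Of them, 61 stood under 10 RPKM in control leaves and 17 at 100 RPKM or more. Together they made up 0.731% of the summed RPKM of the gene models in control leaves and 0.218% in EBL leaves. Most lay close to the threshold: 150 had a log2 fall under 1.5. The median effect was -1.19 (log2), and 11 gene models were at least 4-fold lower. The number of members rests on the scaling of the leaf columns and on the limits of the rule. When all columns were scaled to the same sum over the gene models, 642 met the rule, 183 of the 186 among them. With 0.1 or 2 in place of the 1 added to each RPKM, 256 or 132 gene models met it. A control leaf minimum of 10 RPKM gave 125. The 186 are 77.2% of the 241 gene models at least 2-fold lower in leaves, which were 0.947% of the 25458 compared there. The other 55 stood under 5 RPKM in control leaves. Just inside the threshold, Zm00001d007341 stood at 5.85 RPKM in controls against 2.41 RPKM with EBL (-1.01). Just outside it, Zm00001d009605 stood at 11.96 and 5.48 RPKM (-0.9995).

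The largest fall in leaves on the log2(RPKM + 1) scale was that of Zm00001d013619, from 5.84 to 0.109 RPKM (-2.63). It was barely measured elsewhere, at 0.300 RPKM in control and 0.564 in EBL shoots and at 0.0894 and 0.478 in roots. The next was Zm00001d023516, which stood at 141 RPKM in control leaves against 25.6 RPKM with EBL (-2.41). This gene model was also lower in EBL shoots, at 19.0 and 5.43 RPKM (-1.64), and in EBL roots, at 8.29 and 3.66 RPKM (-0.99, just short of 2-fold).

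The members differed in where they were highest. In the control columns 115 of 186 (61.8%) were highest in leaves, 55 (29.6%) in roots and 16 (8.60%) in shoots. Among the 14426 other gene models that met the leaf minimum, these shares were 31.3%, 42.1% and 26.6%. Because the rule asks for a control leaf value above the EBL one, the control leaf column took part in this count. A lead of at least 2-fold over both other organs was found in leaves for 72 members, in roots for 22 and in shoots for 1, while 91 members had no such lead. These are 38.7%, 11.8%, 0.538% and 48.9% of the members, against 14.3%, 4.74%, 2.01% and 78.9% of the others. By the mean of control and EBL values, 10 members were enriched at least 8-fold in 1 organ. Of these, 5 were leaf-enriched (2.69%, against 2.49% of the others), 4 were root-enriched (2.15%, against 0.256%) and 1 was shoot-enriched (0.538%, against 0.0832%). The EBL leaf value, low by the rule, took part in these means. It can lower a lead of leaves and widen one of roots or shoots, so these shares are a description. In the EBL columns 71 members (38.2%) were highest in leaves, 92 (49.5%) in roots and 23 (12.4%) in shoots, against 32.0%, 40.7% and 27.3% of the others; fewer in leaves than in the control columns follows from the rule. Of the 115 that were highest in control leaves, 71 were still highest in leaves in the EBL columns, 31 were then highest in roots and 13 in shoots. These classes use the columns as deposited and move with their scaling. With median-ratio, quantile and gene model sum scaling, 142, 134 and 106 members were highest in control leaves. The shares of gene models at the leaf minimum were then 52.5%, 43.3% and 27.5%. In the EBL columns 99, 90 and 58 members were highest in leaves, against 52.6%, 41.1% and 23.9%. The 99 of 186 are near that share.

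**Figure D1:**
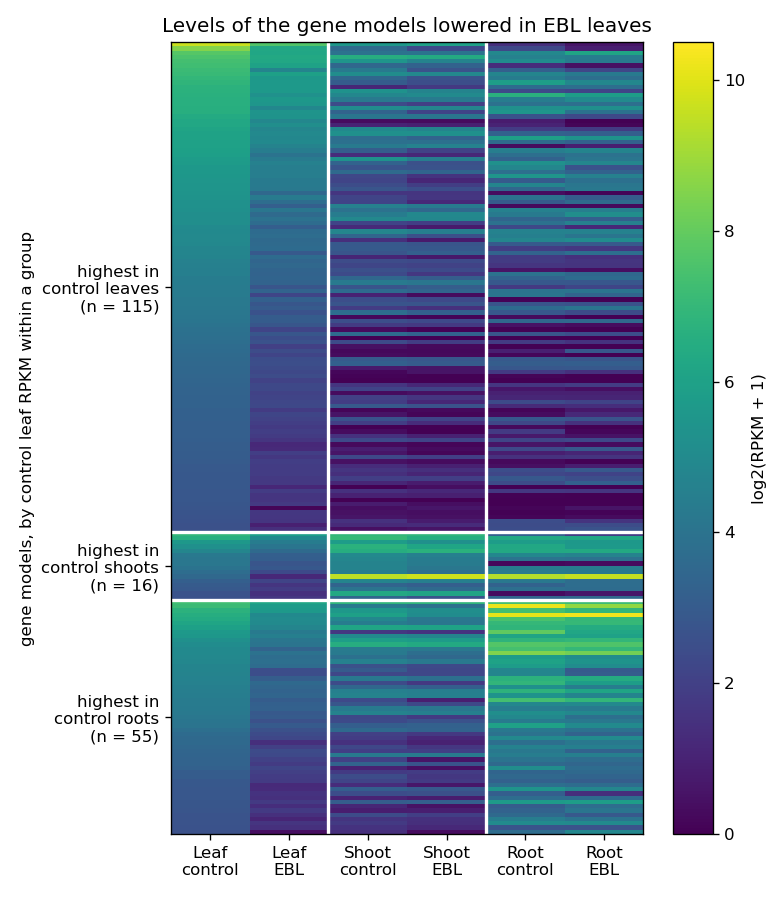
Levels of the 186 gene models (rows) in the 6 deposited columns, as log2(RPKM + 1), grouped by the organ with the highest control value and sorted by control leaf RPKM within a group. The 115 members highest in control leaves have a median of 19.7 RPKM there, 3.68 in control shoots and 4.35 in control roots, while the 55 highest in control roots have a median of 32.9 RPKM there.

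Members highest in control leaves had there a median of 19.7 RPKM without and 7.77 RPKM with EBL. The most abundant was Zm00001d048660, at 797 RPKM in control leaves against 198 RPKM with EBL. It stood at 45.8 and 64.0 RPKM in shoots and at 1.70 and 0.506 RPKM in roots, so that its value was higher in EBL only in shoots (0.48), short of 2-fold. Zm00001d041614 came next, at 376 and 76.6 RPKM in leaves.

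Members highest in control roots had there a median of 32.9 RPKM without and 27.0 RPKM with EBL, and of 16.9 and 5.01 RPKM in leaves. The highest was Zm00001d048307, at 1157 RPKM in control and 446 in EBL roots. It was lower in EBL leaves too, at 141 and 53.8 RPKM, and stood at 19.3 and 14.4 RPKM in shoots. Zm00001d048020 was similar in level but not in its root values, at 1119 RPKM in control and 1250 in EBL roots. Its leaf values were 92.6 and 30.3 RPKM and its shoot values 62.3 and 33.1 RPKM. The members highest in control shoots included Zm00001d043413, which was abundant in shoots (709 and 829 RPKM) and in roots (626 and 754 RPKM). In leaves it stood at only 10.7 RPKM in control and 1.34 in EBL (-2.32). Zm00001d009841 was at 130 and 93.1 RPKM in shoots, 98.7 and 31.1 in leaves and 81.3 and 77.3 in roots.

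**Figure D2:**
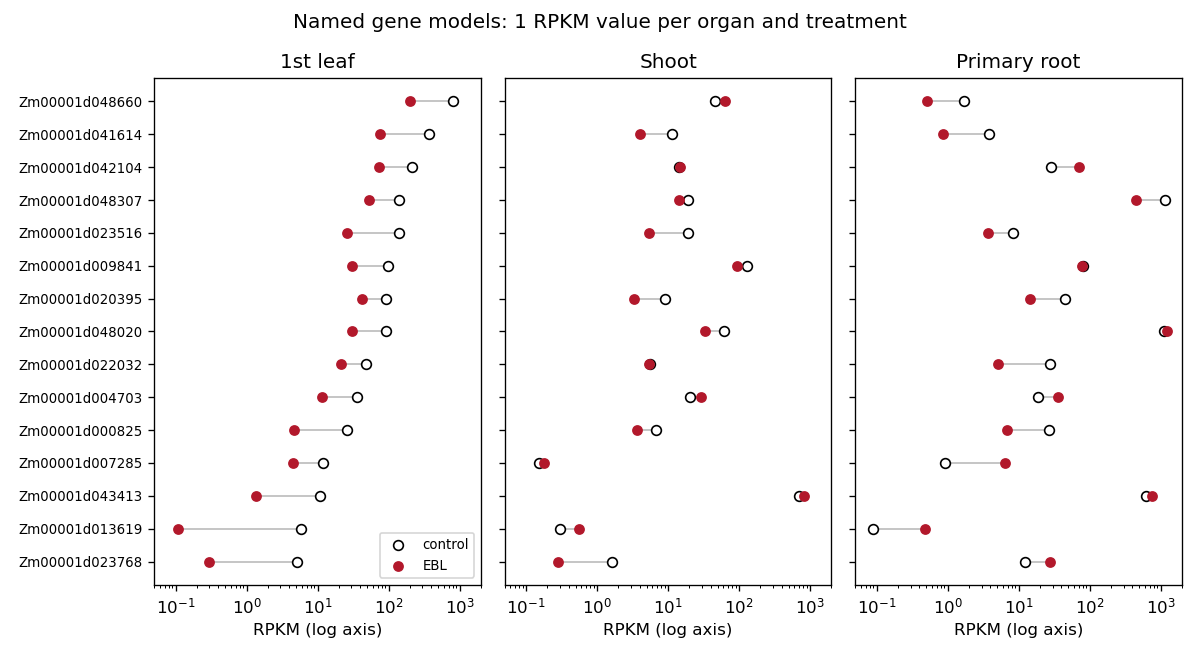
RPKM of the named members in the 1st leaf, the shoot and the primary root on a log axis, with open circles for control and filled circles for EBL, 1 value per organ and treatment. All 15 stand lower in EBL leaves by the rule, while in roots some stand lower (Zm00001d022032, 27.6 and 5.18 RPKM) and others higher (Zm00001d042104, 28.7 and 71.2 RPKM).

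In roots most members stood lower in EBL, and 57 stood higher, most of these short of 2-fold. A root effect could be computed for 178 of the 186; 3 were listed at 0 in both root columns, 4 in EBL roots alone and 1 in control roots alone, and none of these 5 exceeded 0.187 RPKM in the other column. Of the 178, 16 had a root level at least 2-fold lower with EBL (8.99%), against 1.61% of the 25741 gene models compared in roots. At least 2-fold higher were 3 (1.69%), against 0.602%. In all, 121 members were below 0 (68.0%), against 41.1% of all gene models compared and 47.0% of the others that met the leaf minimum. The median root effect was -0.14 (log2), with quartiles of -0.48 and 0.09, against 0.05 for all gene models. For the 14384 others that met the leaf minimum and were compared in roots, 1.90% were at least 2-fold lower, the median was 0.01 and the quartiles were -0.14 and 0.14. No test of these differences could be run. With a pseudocount of 0.1 in place of 1, 25 members were at least 2-fold lower in roots, against 2.98% of all gene models. At least 2-fold higher were then 7, against 1.85%. Under the 3 other scalings between 70.8% and 71.9% of the members lay below the median of all gene models in roots, against 71.3% as deposited.

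The root share differed with the organ in which a member was highest. Of the 55 members highest in control roots, 9 were at least 2-fold lower in roots with EBL (16.4%), against 0.758% of the 6070 others highest in roots. The control root value took part in both this class and the root effect, for members and others alike, so this split is a description. Of the 107 compared members highest in control leaves, 6 were at least 2-fold lower (5.61%), against 4.80% of the 4478 others highest in leaves, which is near that background. Of the 16 highest in control shoots, 1 was at least 2-fold lower, against 0.339% of the 3836 others highest in shoots. Below 0 in roots were 68 of 107 members highest in control leaves (63.6%), against 57.3% of the others in that class. For members highest in control roots this was 43 of 55 (78.2%), against 50.3%, and for those highest in control shoots 10 of 16, against 29.7%. Leaf-enriched gene models as a whole stood lower in EBL roots: the median of 354 was 3.52 RPKM in control and 1.48 in EBL roots, an effect of -0.52. Without the 10 organ-enriched members 14 of 168 were at least 2-fold lower in roots (8.33%), against 1.06% of all gene models not organ-enriched. This alternative was chosen after seeing the data. Below a mean of 1 RPKM in roots, 15 of 27 members were below 0 (55.6%), against 67.1% of others at that level, and at 20 RPKM or more 44 of 59 were (74.6%), against 45.2%.

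The 16 members at least 2-fold lower in roots ran from 2.44 to 1157 RPKM in control roots, with a median of 28.1. Their median in EBL roots was 9.80 RPKM, and 4 had a root mean under 5 RPKM. The largest fall was that of Zm00001d022032, at 27.6 RPKM in control and 5.18 in EBL roots (-2.21). Its leaf values were 47.4 and 21.5 RPKM, and its shoot values were 5.55 and 5.39 RPKM. Zm00001d000825 stood at 26.8 RPKM in control and 6.76 in EBL roots (-1.84). Its levels in leaves were alike, at 26.0 and 4.60 RPKM, and in shoots they were 6.80 and 3.71 RPKM. Both gene models were thus lower in leaves and roots. In shoots Zm00001d022032 hardly differed (-0.04), while Zm00001d000825 was lower, short of 2-fold (-0.73).

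The 3 members at least 2-fold higher in EBL roots are named because they are the whole of that count. Zm00001d042104 stood at 28.7 RPKM in control and 71.2 in EBL roots (1.28), and at 211 and 74.2 RPKM in leaves, so that its EBL levels in both organs were close. In shoots it stood at 14.4 and 14.8 RPKM. Zm00001d023768 was at 12.4 and 28.0 RPKM in roots (1.12), at 5.14 and 0.294 in leaves and at 1.64 and 0.280 in shoots, where it was lower in EBL (-1.05). Zm00001d007285 was at 0.916 and 6.42 RPKM in roots (1.95), at 11.8 and 4.45 in leaves and under 0.2 RPKM in both shoot columns.

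**Figure D3:**
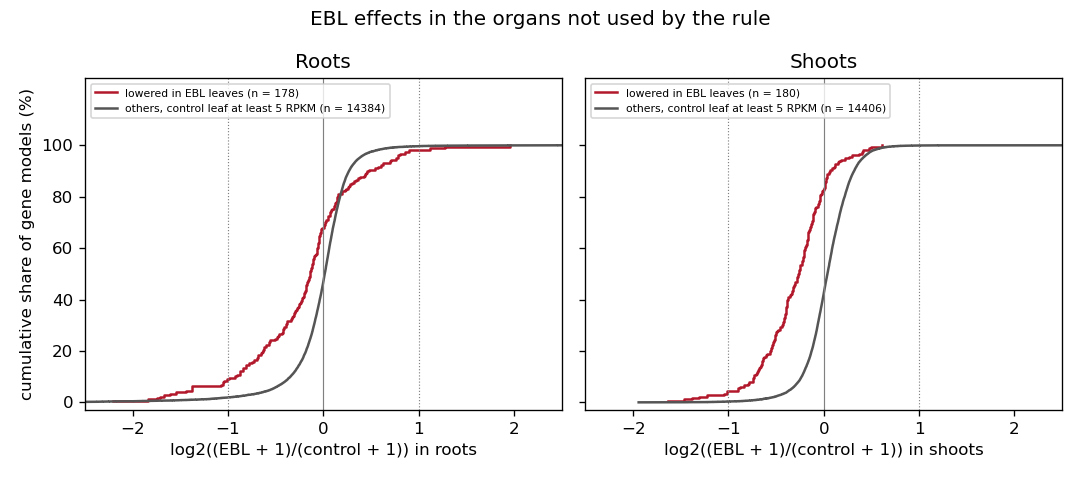
Cumulative share of gene models by their EBL effect, log2((EBL + 1)/(control + 1)), in roots (left) and shoots (right), for the members and for the others with at least 5 RPKM in control leaves; dotted lines mark 2-fold. The members' curve lies to the left over most of its range in shoots (median -0.27 against 0.04), and in roots both quartiles lie lower (-0.48 and 0.09 against -0.14 and 0.14), while 1.69% of members against 0.389% of the others lie at or past 2-fold higher.

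In shoots most members stood lower in EBL, by small amounts. A shoot effect could be computed for 180 of the 186; 2 were listed at 0 in both shoot columns, 3 in EBL shoots alone and 1 in control shoots alone. Of the 180, 149 were below 0 (82.8%), against 46.3% of the 25599 gene models compared in shoots and 42.3% of the others that met the leaf minimum. The median shoot effect was -0.27 (log2), with quartiles of -0.51 and -0.09, against a median of 0.02 for all gene models. At least 2-fold lower were 8 members (4.44%), against 0.434% of all gene models compared. None was at least 2-fold higher, against 0.129%. The highest shoot effect of a member was 0.61. The count of 8 was 22 with a pseudocount of 0.1, 4 with 2 and 5 after median-ratio scaling, where 2.09%, 0.246% and 0.402% of all gene models were lower. Under the 3 other scalings between 84.4% and 86.1% of the members lay below the median of all gene models in shoots, against 85.6% as deposited.

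The lower position in shoots was seen in each class of members and at each level. Below 0 were 88 of 109 members highest in control leaves (80.7%), 47 of 55 highest in control roots (85.5%) and 14 of 16 highest in control shoots, against 39.0%, 44.9% and 41.9% of the others in the same classes. The medians of these classes of members were -0.22, -0.31 and -0.39. The control shoot value took part in both the classes and the shoot effect. By mean level in shoots, the share below 0 was 77.4% of 31 members under 1 RPKM, 88.3% of 60 from 1 to 5 RPKM, 82.0% of 50 from 5 to 20 RPKM and 79.5% of 39 at 20 RPKM or more. For the others these shares were 63.5%, 57.2%, 47.3% and 35.3%. Root-enriched gene models as a whole stood lower in EBL shoots, with a median of 1.34 RPKM without and 0.632 RPKM with EBL. Without the 10 organ-enriched members, 6 of 170 were at least 2-fold lower in shoots (3.53%) and 139 were below 0 (81.8%). Among all gene models not organ-enriched these shares were 0.202% and 45.6%.

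Of the 8 members at least 2-fold lower in shoots, 5 were highest in control leaves and 3 in control roots, and 4 had a shoot mean under 5 RPKM. Zm00001d023516, given above, had the largest fall among those with a shoot mean of at least 5 RPKM. Zm00001d041614 followed, at 11.5 RPKM in control and 4.02 in EBL shoots (-1.31). At the other end, Zm00001d004703 stood at 20.5 RPKM in control and 29.3 in EBL shoots (0.50) and at 18.6 and 35.6 in roots (0.90), both short of 2-fold. In leaves it stood at 35.9 and 11.4 RPKM.

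Across the 177 members compared in both organs, 107 were below 0 in roots and in shoots (60.5%), 39 in shoots alone, 13 in roots alone and 18 in neither. Among 14372 others compared in both organs, 22.9% were below 0 in both. The size of the effect was under 2-fold in both organs for 154 members (87.0%), against 97.4% of the others. Spearman's correlation of root and shoot effects was 0.15 over these 177 gene models, which share the same 4 columns and are no independent replicates, and 0.14 over the others. In roots the counts showed no steady order with the size of the leaf fall. At least 2-fold lower in roots were 3 of 11 members with a leaf fall of at least 4-fold, 1 of 23 with a log2 fall from 1.5 to 2 and 12 of 144 with a smaller one, against 1.61% of all gene models. In shoots these were 3 of 11, 1 of 24 and 4 of 145, against 0.434%. The shoot share past 2-fold was thus smaller with each smaller leaf fall, though it rests on few members. Other measures did not share that order. The median shoot effects were -0.54, -0.22 and -0.27. Below 0 in shoots were 8 of 11, 19 of 24 and 122 of 145, a rising share, against 46.3% of all gene models. Spearman's correlation of leaf and shoot effects was 0.05 over the 177 members, whose leaf effects the rule limits.

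**Figure D4:**
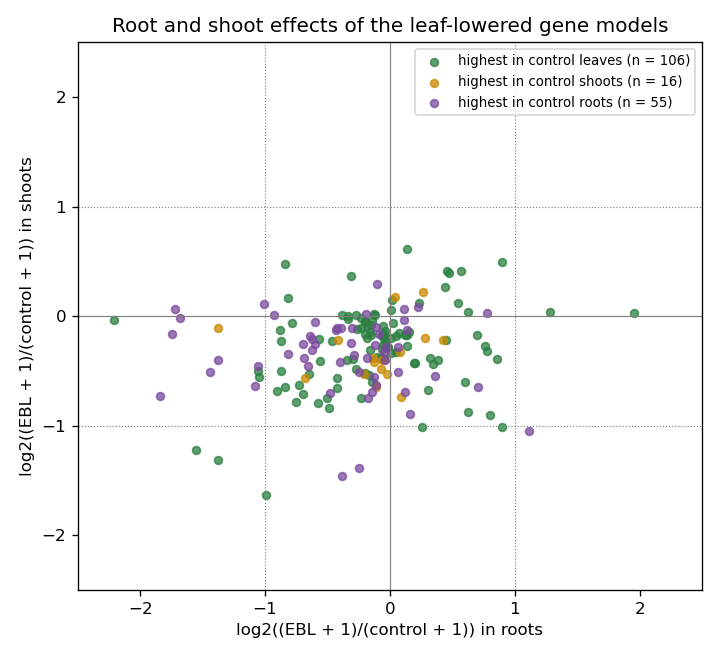
EBL effect in roots (horizontal) against that in shoots (vertical) for the 177 members compared in both organs, 1 point per gene model, coloured by the organ with the highest control value; dotted lines mark 2-fold. Most points lie below the horizontal line at 0, 107 of them to the lower left of both lines at 0, and the root effects are the more widely spread, from -2.21 to 1.95.

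At least 2-fold lower in all 3 organs were 2 members, 1.13% of the 177 compared in roots and shoots. Of the 14372 others, 4 were at least 2-fold lower in both roots and shoots (0.0278%). Zm00001d041614 stood at 376 RPKM in control leaves against 76.6 RPKM with EBL (-2.28), at 11.5 and 4.02 in shoots (-1.31) and at 3.83 and 0.864 in roots (-1.37). It is leaf-enriched, so the lower root level of leaf-enriched gene models stands beside its root value, and the part of that in its root fall was not tested. Zm00001d020395 stood at 93.6 and 42.9 RPKM in leaves (-1.11), at 9.16 and 3.35 in shoots (-1.22) and at 44.4 and 14.5 in roots (-1.55). It was not enriched in any organ.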

How the data were processed

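Stranded polyA libraries (TruSeq) came from TRIzol-extracted, DNase-treated RNA, per the labels' protocols. The authors deposited RPKM values in 6 columns, one for each group, per the file headers. How the 3 replicates were combined or scaled was not given in the sources used here. CASAVA 1.8, Trimmomatic 0.33, TopHat2 2.0.13, Cufflinks 2.2.1 and the build B73 RefGen_v4 are named, without roles, per the submitters' processing notes. The members and lists were chosen with earlier results of these data known. RPKM depends on all other features of a column, so a scaling of leaf columns moves the member count.

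Effects are log2((EBL + 1)/(control + 1)), which understates changes of low values. An effect was computed where neither value of that organ was 0 and the highest of the 6 values was 1 RPKM or more. With 1 value per group, the planned limma fits could not be run, and a rule of size (2-fold) took their place. A gene model counted as organ-enriched when the mean of its log2 values in the organ corresponded to 10 RPKM or more and exceeded both other organs by 8-fold or more.

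Named members, by rule, were the 2 with the largest leaf fall, per organ the 2 most lowered and 2 most raised among those with a mean of at least 5 RPKM, the 2 with the highest control value per class, those lower in all 3 organs, and the neighbours of the threshold. Zm00001d007285, with a root mean under 5 RPKM, was named outside that rule, after the values were seen. It completes the 3 members at least 2-fold higher in roots. The gene lists, organ markers and promoter motifs planned for named gene models gave no result, because no identifier was matched to a name. Alternatives were pseudocounts of 0.1 and 2, 3 scalings and other limits of the rule. The rule was run on simulated columns with known falls and a small set noise. This checks the code and does not measure the error of the rule on these data. Software was matplotlib 3.10.9, scipy 1.17.1, pandas 2.3.3, numpy 2.4.6 and Python 3.11.15.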

Additional observations from a re-analysis of the deposited data

Results flagged for a closer look

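Called 2-fold lower in leaves and 2-fold higher in roots were 3 members, each with 1 value per group, so the difference between the organs was not tested. The log2 effect in roots was 1.95 for Zm00001d007285, 1.28 for Zm00001d042104 and 1.12 for Zm00001d023768.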

How the results depend on the processing

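No paired analysis was possible because the table holds 1 value per group, and for the same reason no replicate could be left out. Of 86 recomputed values, 66 stayed within 1.5 times the reported count or 0.1 (log2) of the reported median, 20 did not, and no median changed sign. The number of members rests on how the leaf columns are scaled and on the pseudocount, with 256 at 0.1 and 132 at 2. With columns scaled so that gene models sum alike, which moved the overall median in leaves from -0.01 to -0.23 (log2), the rule gave 642 gene models, 183 of them among the 186. It gave 195 with median-ratio scaling and 225 with quantile normalization, 172 and 169 of them among the 186. With the 186 kept, the median shoot effect was -0.37 after scaling to the sum, against -0.07 for all gene models. In the counts that follow, lower and higher mean at least 2-fold. With a pseudocount of 0.1, 25 members were lower and 7 higher in roots, against 2.98% and 1.85% of all gene models. In shoots 22 were lower and 1 higher, against 2.09% and 0.695%. With 2, 4 were lower in shoots, and with median-ratio scaling 5, against 0.246% and 0.402% of all gene models. With a leaf effect of at most -1.5, 4 of 34 were lower and 1 higher in roots, against 1.61% and 0.602% of all gene models. In shoots 4 of 35 were lower, against 0.434%. Highest in leaves were 23 of 36 without EBL and 11 with it, against 31.7% and 32.1% of gene models at the leaf minimum. The 11 are near that share. With at least 10 RPKM in control leaves, which keeps fewer members, 47 of 125 were highest in leaves among the EBL columns. The share was 32.1% of gene models at the leaf minimum of 5 RPKM. When the rule was applied again after scaling to the sum, added after the data were seen, 39 of 631 were lower and 9 higher in roots, against 1.60% and 0.668% of all gene models, and 18 of 636 lower and 1 higher in shoots, against 0.570% and 0.0938%. Highest in leaves were then 314 of 642 without EBL and 162 with it, against 27.5% and 23.9% of gene models at the leaf minimum. The cause of these changes was not tested beyond the settings themselves.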

Other observations

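Of the other feature classes at the same limits, 9 of 222 ENSRNA non-coding RNA features (4.05%), 2 of 21 miRNA genes and 0 of 32 GRMZM5G features were lower in EBL leaves, against 1.27% of gene models.

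Some pairs of members had similar values, noticed after the values were seen. Whether they are similar copies that share reads is not shown by the files. Zm00001d000825 and Zm00001d038401 stood at 26.0 and 25.2 RPKM in leaves without EBL, 4.60 and 4.54 with it, 26.8 and 26.7 in control roots and 6.76 and 7.65 in EBL roots. In control shoots they differed more, at 6.80 and 3.78 RPKM. Zm00001d007783 and Zm00001d051915 differed by at most 0.30 (log2) in every column, for example 23.8 and 23.0 RPKM in leaves without EBL.

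Identifiers of 23 members lay within 5 numbers of another member's. Of 536 gene models at the leaf minimum with a number that near to a member, 23 were members (4.29%), against 1.27% overall. Zm00001d048656, at 41.9 RPKM in leaves without and 10.6 RPKM with EBL, and Zm00001d048660, at 797 and 198 RPKM, are such a pair. Positions in the genome were not used here.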
